A study of Mus musculus with 8 samples.

Results

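The 10 genes described here carry iron sensing, hepcidin production and iron storage in the liver: Hamp, Bmp6, Id1, Hfe, Tfr2, Tfrc, Trf, Slc40a1, Fth1 and Ftl1. They were chosen by gene symbol and compared between livers that lack Brap in hepatocytes and control livers, and they were 10 of the 24451 genes measured. None of the 10 passed the test between the groups (limma, adjusted p under 0.05), which 0.769% of the 15352 genes tested did. Hepcidin itself averaged 17264 ± 4183 normalized counts in the knockout and 17536 ± 1204 in the controls (SD, n = 4 livers each). The highest fitted differences were in Slc40a1, the iron exporter, at 0.35 on the log2 scale, and in Bmp6 at 0.33. The lowest was in Fth1, the ferritin heavy chain, at −0.28.

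The livers came from male C57BL/6 mice aged 18 wk, killed after a fast of 6 h, and RNA was taken from the left lobe and sequenced in bulk. All 8 mice carried Brap alleles with loxP sites around exons 2 and 3. The 4 Brap LKO mice also carried a Cre recombinase driven by the albumin promoter, which is active in hepatocytes. Whether the other liver cells kept the gene was not tested. The 4 Brap F/F mice had no Cre. In bulk liver, fewer cells of a type and less RNA per cell cannot be told apart.

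Each liver had between 26280884 and 33313914 reads on genes. Brap itself did not check the labels: its normalized counts ran from 3641 to 4203 in Brap LKO livers and from 3994 to 4410 in Brap F/F livers. The log2 difference was −0.07 (adjusted p = 0.631, limma). The floxed exons make up 9.56% of its main transcript, and a value per gene does not show them apart. Why the level was alike was not tested. Of 10 hepatocyte markers none passed the test in either direction, and their summed level ran from 2595950 to 3263030 in Brap LKO and from 3031090 to 4243330 in Brap F/F livers. Of these markers 7 had a fitted value below 0, against 52.0% of all tested genes, and the median log2 difference was −0.19. The groups did not overlap in 2 markers, both lower in Brap LKO livers, against 9.87% of all tested genes in either direction. The part of hepatocyte content in the values of the iron genes was not tested. The animal numbers in the labels form 2 series, split at 7500. Replicates 1, 2 and 3 of Brap LKO and replicate 1 of Brap F/F have the lower numbers, and the other 4 livers the higher, so series and genotype are largely confounded.

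Hepcidin is a small peptide hormone that hepatocytes secrete when iron is plentiful, and it makes the iron exporter ferroportin, the product of Slc40a1, disappear from cell surfaces. BMP6, made largely by sinusoidal endothelial cells, signals through SMAD proteins to switch the hepcidin gene on, with HFE and transferrin receptor 2 as sensors of transferrin-bound iron; inflammation acts on the same gene through IL-6 and STAT3. Inside cells, iron regulatory proteins bind hairpins called iron-responsive elements when iron is scarce. Binding at the start of a transcript blocks its translation, as in the ferritins and ferroportin, and binding at its end protects the transcript from decay, as in Tfrc.

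The hepcidin promoter is shown because it holds both inputs within a short stretch, and beside it stands that of Hamp2, a neighboring paralog whose level behaved differently. The 150 bases before each RefSeq start were read on the minus strand of GRCm38.p6, Hamp at chr7:30944030-30944179 and Hamp2 at chr7:30924182-30924331. Capitals mark GGCGCC, the core of a BMP response element, and TTCTTGGAA, a STAT site.
Hamp: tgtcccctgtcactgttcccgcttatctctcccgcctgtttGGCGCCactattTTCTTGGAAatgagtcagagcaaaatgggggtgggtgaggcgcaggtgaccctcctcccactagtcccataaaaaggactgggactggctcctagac
Hamp2: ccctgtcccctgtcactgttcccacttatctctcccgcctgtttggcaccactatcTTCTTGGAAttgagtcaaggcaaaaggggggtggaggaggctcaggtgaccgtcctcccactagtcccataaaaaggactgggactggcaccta

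These windows were identical at 135 of 153 aligned positions (88.2%). The BMP element differed by the substitution G4A, counted from 1 at the 5′ base of the element in Hamp, so that GGCGCC was present only in Hamp, while TTCTTGGAA was present in both. Of the other genes with a promoter in the table, Tfrc also had GGCGCC. On either strand, GGCGCC occurred in 11.9% and TTCTTGGAA in 0.417% of the 32851 RefSeq promoter windows of 300 bases; the shorter match TTCNNNGAA, which contains the second motif, occurred in 8.30%. These are letter matches and not measured binding.

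The iron-responsive elements are shown because they set 4 of the 10 genes apart from the rest. They were found in GENCODE M21 transcripts (mm10) as the loop CAGTGN, capitals here, closing a stem of at least 5 pairs with an unpaired C 5 bases before the loop. Fth1 (chr19:9982732-9982761, plus strand), Ftl1 (chr7:45459778-45459807, minus strand) and Slc40a1 (chr1:45925464-45925493, minus strand) had 1 each in the 5′ untranslated region.
Fth1: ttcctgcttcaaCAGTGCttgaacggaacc
Ftl1: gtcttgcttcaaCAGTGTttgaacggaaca
Slc40a1: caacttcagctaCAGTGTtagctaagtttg
Tfrc had 4 in its 3′ untranslated region, on the plus strand of chromosome 16, of which the first and the last are shown (chr16:32631219-32631248 and chr16:32631710-32631739).
Tfrc first: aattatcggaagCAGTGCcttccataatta
Tfrc last: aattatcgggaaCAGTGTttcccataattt

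The pattern was rare, at 21 of 21951 coding genes in the 5′ region (0.0957%) and 111 in the 3′ region (0.506%). In the livers the 4 genes did not share a direction: the fitted log2 differences were 0.35 for Slc40a1 and 0.04 for Tfrc, and −0.28 for Fth1 and −0.10 for Ftl1.

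The levels of the 10 genes, as normalized counts per kilobase of transcript, fell into tiers that were alike in both groups. Hamp and Fth1 led, at 42106 ± 10202 and 39753 ± 1282 in Brap LKO and at 42770 ± 2938 and 48411 ± 6006 in Brap F/F livers, and the ranges of these 2 genes overlapped in both groups. Ftl1 followed at 7211 ± 464 and 7743 ± 643, and Tfr2 at 4662 ± 216 and 5246 ± 360, with no overlap between these neighbors. Trf, at 1527 ± 88.0 in Brap LKO, overlapped Slc40a1, at 1378 ± 257, whereas in Brap F/F livers 1773 ± 330 and 1068 ± 105 stood apart. Id1 and Hfe overlapped in both groups, at 297 ± 111 and 273 ± 18.0 in Brap LKO and 270 ± 56.0 and 324 ± 29.5 in Brap F/F livers. Tfrc, at 109 ± 49.1 and 107 ± 44.4, and Bmp6, at 65.3 ± 6.33 and 53.7 ± 17.6, were lowest, and their ranges overlapped in Brap F/F livers only.

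**Figure D1:**
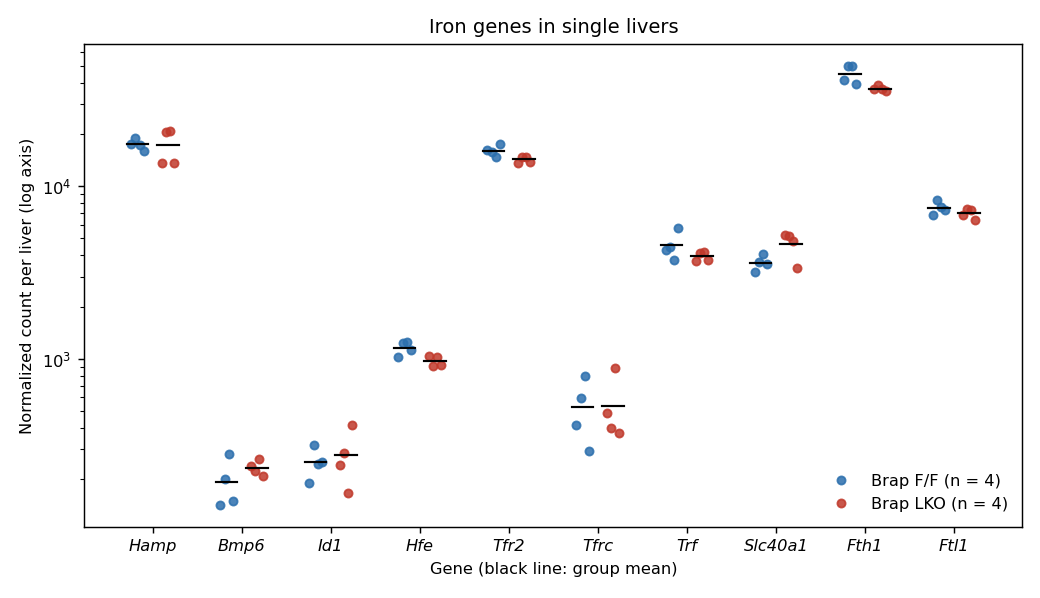
Normalized count (log axis) of each of the 10 iron genes in each liver; points are livers, blue for Brap F/F and red for Brap LKO (n = 4 each), and black lines are group means. The groups overlap in every gene but Fth1, where all 4 Brap LKO livers (35773 to 38593) lie below all 4 Brap F/F livers (39213 to 49936); of all tested genes, 9.87% had groups that did not overlap.

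Hamp, the hepcidin gene (ENSMUSG00000050440, chromosome 7, 30942368 to 30944032, minus strand), measured 13586, 20765, 21004 and 13699 normalized counts in Brap LKO replicates 1 to 4 and 17511, 19080, 17413 and 16139 in Brap F/F replicates 1 to 4. The Brap LKO livers fell on both sides of the control range, 2 above it and 2 below it. The coefficient of variation was 24.2% in Brap LKO and 6.87% in Brap F/F livers. The log2 difference was −0.05 (95% interval −0.42 to 0.31, adjusted p = 0.894, limma), and it was above 0 under 4 alternatives, at 0.08 with quantile normalization, 0.11 with the same total per liver, and 0.05 without Brap LKO replicate 1 or replicate 4.

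Hamp2, which is not among the 10 genes, is a close copy: its main transcript (chromosome 7, 30922372 to 30924681, minus strand) was 93.0% identical to that of Hamp, and 60 of the 361 windows of 50 bases in Hamp occurred in it unchanged. Some reads of either gene could therefore have been counted for the other. Hamp2 measured 382, 346, 156 and 152 normalized counts in Brap LKO livers and 132, 1469, 1542 and 83.4 in Brap F/F livers. Brap F/F replicates 2 and 3 stood far above the other 6 livers, and the highest liver was 18.5-fold above the lowest. The log2 difference was −0.75 (95% interval −2.86 to 1.35, adjusted p = 0.719, limma). Hamp2 reads amounted to between 0.00517 and 0.0886 of Hamp in a liver, and with both genes added together the log2 difference was −0.09 (exact two-sided permutation p = 0.657).

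Bmp6, the ligand that reports iron stores (ENSMUSG00000039004, chromosome 13, 38345107 to 38500302, plus strand), measured 240, 224, 263 and 210 normalized counts in Brap LKO livers and 143, 200, 280 and 149 in Brap F/F livers. The Brap LKO livers lay within the control range. Between the groups Bmp6 differed by 0.33 on the log2 scale (95% interval −0.13 to 0.78, adjusted p = 0.454, limma). It was 0.52 with control replicate 3 left out and 0.20 with control replicate 1 left out. Bmp6 shares 5.74% of its exon bases with Txndc5 on the opposite strand, and whether counting used strand is not given in the sources used here. The summed level of 12 sinusoidal endothelial markers ran from 11528 to 15989 in Brap LKO and from 9770 to 15436 in Brap F/F livers. None passed the test, 11 had a fitted value above 0, against 48.0% of all tested genes, and the median was 0.18. Their part in the Bmp6 values was not tested.

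Id1, a transcriptional target of BMP and SMAD signaling (ENSMUSG00000042745, chromosome 2, 152736251 to 152737410, plus strand), measured 242, 285, 168 and 415 normalized counts in Brap LKO livers and 190, 318, 247 and 254 in Brap F/F livers. Brap LKO replicates 3 and 4 were the lowest and the highest of all 8 livers. Id1 had a log2 difference of 0.09 (95% interval −0.49 to 0.66, adjusted p = 0.893, limma), and it turned to −0.13 without Brap LKO replicate 4 and to −0.04 without Brap F/F replicate 1. With the animal-number series as a covariate it was 0.43 (adjusted p = 0.445, limma).

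Hfe, the sensor mutated in hereditary hemochromatosis (ENSMUSG00000006611, chromosome 13, 23702034 to 23710854, minus strand), measured 1033, 914, 1030 and 927 normalized counts in Brap LKO livers and 1027, 1242, 1247 and 1121 in Brap F/F livers. Brap F/F replicate 1 lay among the Brap LKO livers and the other 3 controls lay above them. The means were 976 ± 64.3 and 1159 ± 105. For Hfe the log2 difference was −0.25 (95% interval −0.43 to −0.06), with an unadjusted p of 0.0163 and the lowest adjusted p of the 10 genes, 0.216 (limma).

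Tfr2, the hepatocyte receptor that partners with HFE (ENSMUSG00000029716, chromosome 5, 137569840 to 137587481, plus strand), measured 13618, 14898, 14881 and 13894 normalized counts in Brap LKO livers and 16326, 15751, 14870 and 17510 in Brap F/F livers. Of the controls, replicate 3 lay within the Brap LKO range and the other 3 lay above it. In the fit, Tfr2 was at −0.17 on the log2 scale (95% interval −0.35 to 0.01, adjusted p = 0.345, limma).

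Tfrc, transferrin receptor 1, which takes up transferrin-bound iron in most cells (ENSMUSG00000022797, chromosome 16, 32608920 to 32632794, plus strand), measured 484, 398, 888 and 371 normalized counts in Brap LKO livers and 416, 590, 793 and 293 in Brap F/F livers. Replicate 3 was highest in both groups and replicate 4 lowest, and the groups overlapped throughout. The log2 difference was 0.04 (95% interval −0.73 to 0.81, adjusted p = 0.967, limma), the widest interval of the 10, and it was below 0 under 4 alternatives, as low as −0.24 without Brap LKO replicate 3. Tfrc is also abundant in young red cells, and the summed level of the erythroid markers was likewise lowest in replicate 4 of each group, at 444 and 477 normalized counts, and highest in replicate 3 of Brap LKO, at 1154, and replicate 2 of Brap F/F, at 1234; their part in the Tfrc values was not tested.

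Trf, transferrin, the plasma iron carrier that hepatocytes secrete (ENSMUSG00000032554, chromosome 9, 103204001 to 103230444, minus strand), measured 3707, 4101, 4141 and 3756 normalized counts in Brap LKO livers and 4285, 4440, 3756 and 5753 in Brap F/F livers. Control replicate 3 lay inside the Brap LKO range and the other 3 controls above it. Trf differed by −0.20 on the log2 scale (95% interval −0.47 to 0.07, adjusted p = 0.445, limma), and by −0.082 without Brap F/F replicate 4. In the annotation, 63.5% of the exon bases of Trf lie in exons of Gm20425 on the same strand, so reads there are ambiguous between these genes and the level of Trf is uncertain.

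Slc40a1, ferroportin, the iron exporter (ENSMUSG00000025993, chromosome 1, 45908068 to 45926523, minus strand), measured 5216, 5165, 4822 and 3370 normalized counts in Brap LKO livers and 3177, 3624, 4042 and 3557 in Brap F/F livers. Brap LKO replicates 1, 2 and 3 lay above every control and replicate 4 lay below 3 of the 4 controls. The means were 4643 ± 867 and 3600 ± 355. The log2 difference was 0.35 (95% interval 0.03 to 0.67), with an unadjusted p of 0.0343 and an adjusted p of 0.282 (limma).

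The 4 Brap LKO values of Slc40a1 parted along the animal-number series. In the lower series the 3 Brap LKO livers were above the only control, and in the higher series the only Brap LKO liver was below all 3 controls; with 1 liver of a group in each series, no test within a series was made. With the series as a covariate the log2 difference was 0.26 (adjusted p = 0.545, limma), and without Brap LKO replicate 4 it was 0.50 (adjusted p = 0.0944, limma). Macrophages also make ferroportin. Of 16 macrophage markers, 15 had a fitted value above 0, against 48.0% of all tested genes. The test was passed by 1, Gpnmb at 2.20 on the log2 scale (adjusted p = 0.0480, limma), against 0.769% of all tested genes. The summed level of these markers ran from 8913 to 15642 in Brap LKO and from 8652 to 12478 in Brap F/F livers. Their part in the Slc40a1 values was not tested.

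Fth1, the ferritin heavy chain, which oxidizes iron as it is stored (ENSMUSG00000024661, chromosome 19, 9980598 to 9985098, plus strand), measured 36571, 38593, 36787 and 35773 normalized counts in Brap LKO livers and 41175, 49936, 49572 and 39213 in Brap F/F livers. All 4 Brap LKO livers lay below all 4 controls, and the controls spread more widely. The means were 36931 ± 1191 and 44974 ± 5579. The log2 difference was −0.28 (95% interval −0.53 to −0.02), with an unadjusted p of 0.0361 and an adjusted p of 0.286 (limma). The exact two-sided permutation p was 0.0286, the smallest that 4 livers against 4 can give, and 0.286 when adjusted over the 10 genes. Fth1 was the only gene of the 10 whose groups did not overlap, against 9.87% of all tested genes.

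Ftl1, the ferritin light chain (ENSMUSG00000050708, chromosome 7, 45457944 to 45459884, minus strand), measured 6832, 7386, 7289 and 6413 normalized counts in Brap LKO livers and 6830, 8309, 7572 and 7269 in Brap F/F livers. The groups overlapped. Ftl1 had a log2 difference of −0.10 (95% interval −0.29 to 0.08, adjusted p = 0.572, limma), and it was 0.06 with the same total per liver. Processed copies of either ferritin gene averaged at most 9.30 normalized counts, and Ftl1 shares 26.5% of its exon bases with Gm10252 on the opposite strand, which averaged 25.1.

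Across the 10 genes, 0 passed an adjusted p of 0.05 by limma, by edgeR and by DESeq2, with lowest adjusted p of 0.216, 0.217 and 0.0975. At an unadjusted p under 0.05 there were 3 by limma (Hfe, Slc40a1 and Fth1), against 15.8% of all tested genes by limma. There were 3 by edgeR and 4 by DESeq2, whose shares over all tested genes were not computed, so these counts have no background beside them. Fitted values were above 0 in 4 genes and below 0 in 6, against 48.0% and 52.0% of all tested genes. The median log2 difference of the 10 was −0.08, and that of all tested genes was −0.01. The median absolute difference was 0.18 for the 10 genes and 0.15 for all genes. The 95% intervals, which are not adjusted for the number of genes, together reached from −0.73 to 0.81 on the log2 scale, both limits in Tfrc.

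**Figure D2:**
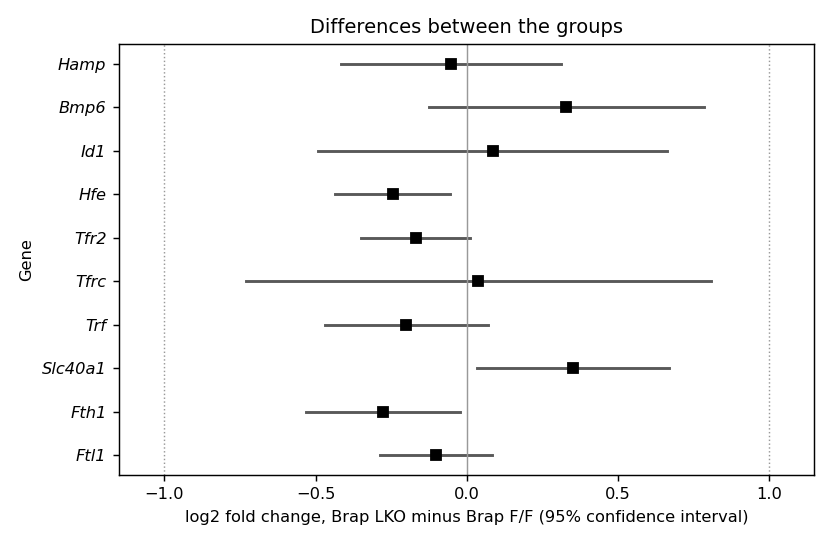
Fitted log2 fold change of each iron gene, Brap LKO minus Brap F/F (squares), with its 95% confidence interval from limma (lines, n = 4 livers a group); dotted lines mark 1 log2 unit either way. Every interval lies inside the dotted lines, and those of Hfe, Slc40a1 and Fth1 exclude 0 before adjustment.

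Ratios within a liver were compared for 4 pairs of genes. Fth1 to Ftl1 ran from 5.05 to 5.58 in Brap LKO and from 5.39 to 6.55 in Brap F/F livers, a log2 difference of −0.18 (exact two-sided permutation p = 0.0571, adjusted over the 4 ratios 0.229). Hamp to Bmp6, the hormone over its inducer, ran from 56.5 to 92.6 in Brap LKO and from 62.3 to 123 in Brap F/F livers, a log2 difference of −0.38 (exact permutation p = 0.200, adjusted 0.400). Hamp to Id1, both targets of SMAD signaling, ran from 33.0 to 125 in Brap LKO and from 59.9 to 92.0 in Brap F/F livers. Its log2 difference was −0.14 and that of Tfr2 to Tfrc was −0.21, each with an adjusted exact permutation p of 0.771.

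Over the 8 livers Hamp was correlated with each of the other 9 genes, and none of the 9 relations passed. The strongest was with Ftl1 (Pearson's r = 0.65, exact permutation p = 0.0780, adjusted 0.702). Spearman's rho was 0.55 (exact permutation p = 0.171). Pearson's r was 0.55 without the 2 livers farthest from the median of Ftl1. After centering each group r was 0.68 (exact permutation p = 0.0645, adjusted 0.546). With Bmp6, r was 0.13 (exact permutation p = 0.751; rho = 0.10, p = 0.840). With Id1, r was −0.43 (exact permutation p = 0.295) and rho was −0.24 (exact permutation p = 0.582). This r turned to 0.40 without the 2 livers farthest from the median of Id1, so that its sign rested on those livers. The adjusted p of both was 0.762, over the 9 relations.

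Among 12755 genes with a mean of at least 20, those most like Hamp over the 8 livers were Trim62, Dancr and Aifm3 (each r = 0.95), Bcs1l and Cabyr (each r = 0.94). Cabyr fell to 125 and 101 normalized counts in Brap LKO replicates 1 and 4, the livers with the least Hamp, and measured 538 and 582 in replicates 2 and 3. Those most like Tfrc were Cdk13 (r = 0.97), Naaladl2, Nampt, Mthfd1l and Slc16a5 (each r = 0.95). Nampt, which makes a precursor of NAD, measured 3810 and 3943 normalized counts in replicate 3 of Brap LKO and Brap F/F, and 2852 and 2377 in replicate 4. These genes were picked for their likeness, so no test was made.

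The wider iron pathway was described with 85 further genes in 9 partly overlapping lists, of which 83 were measured and 81 tested. None of the 81 passed in either direction by limma, the test behind the counts of each list below. Of them, 16 had an unadjusted p under 0.05, against 15.8% of all tested genes. By DESeq2, 625 of the 15352 tested genes passed, among them Cd163 and Steap2, and its calls over the 81 were not counted. The groups did not overlap in 12 of the 81, 2 of them higher and 10 lower in Brap LKO livers, against 9.87% of all genes in either direction. The median log2 difference was −0.06, with 35 genes above 0 and 46 below. Scaling to the same total per liver, given for the lists below, moved the median of all tested genes from −0.01 to 0.15.

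Of 19 genes of BMP and SMAD signaling, 0 passed, 15 had a fitted value above 0 and the median was 0.14, which moved to 0.30 with the same total per liver. The other 4 were below 0, the lowest at −0.10. Bmp4, Smad6, Smad7 and Atoh8 were singled out after their values were seen. The ligand Bmp4 measured 89.9 ± 8.01 and 63.7 ± 7.27 normalized counts, a log2 difference of 0.49 (adjusted p = 0.137, limma), with every Brap LKO liver above every control. It was the only 1 of the 19 genes whose groups did not overlap, against 9.87% of all tested genes. The 2 most abundant members were Tmprss6, the protease that restrains hepcidin, at −0.07 (adjusted p = 0.730, limma), and Id2, a SMAD target, at 0.33 (adjusted p = 0.449, limma). The inhibitory SMAD genes Smad6 and Smad7 were at 0.37 and 0.27 (adjusted p = 0.289 and 0.513, limma), and Atoh8, another BMP target, was at 0.30 (adjusted p = 0.464, limma).

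Of 12 tested genes of IL-6, STAT3 and other inputs, 0 passed and the median was 0.03, which turned to −0.18 when control replicate 3 was left out, −0.15 for control replicate 2 and −0.091 for knockout replicate 4, and was 0.088 for control replicate 4. The transcription factors Cebpa and Creb3l3, its most abundant members, were at 0.05 and −0.09 (adjusted p = 0.845 and 0.659, limma). The acute-phase gene Saa1 varied far more between livers than Hamp did: it measured 1071, 2415, 2572 and 4936 normalized counts in Brap LKO livers and 6111, 344, 377 and 11160 in Brap F/F livers, 32.5-fold from lowest to highest. Hamp spanned 1.55-fold over the same livers. Brap F/F replicates 2 and 3, lowest in Saa1, were the livers with the most Hamp2.

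**Figure D3:**
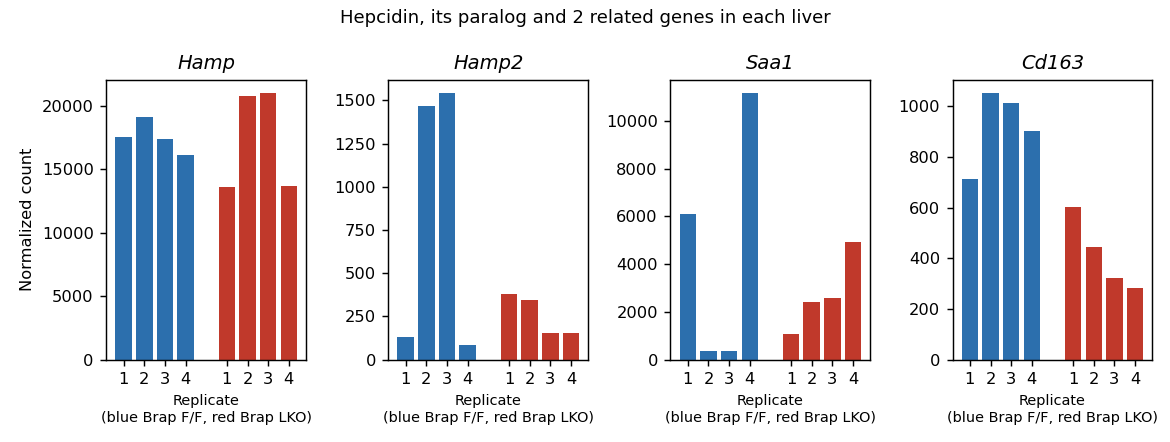
Normalized counts of Hamp, its paralog Hamp2, the acute-phase gene Saa1 and the scavenger receptor gene Cd163 in each liver, with bars from 0; blue bars are Brap F/F replicates 1 to 4 and red bars Brap LKO replicates 1 to 4. Hamp differs little between livers, Hamp2 is high in Brap F/F replicates 2 and 3 where Saa1 is low, and Cd163 is lower in every Brap LKO liver than in any control.

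Of 13 tested genes of iron and heme uptake and scavenging, 0 passed; 8 were below 0 and the median was −0.14, which turned to 0.02 with the same total per liver and was −0.0078 without Brap F/F replicate 4 and −0.21 without replicate 3. Cd163, the macrophage receptor for hemoglobin bound to haptoglobin, came closest to the threshold of all 81 genes, and it was singled out after its values were seen. It measured 601, 443, 324 and 283 normalized counts in Brap LKO livers and 711, 1052, 1011 and 901 in Brap F/F livers. The groups did not overlap, and the log2 difference was −1.20 (95% interval −1.71 to −0.69, adjusted p = 0.0532, limma). It passed under 5 of 21 alternatives, among them DESeq2 (adjusted p = 0.000169), and not under edgeR (adjusted p = 0.0570), and the highest adjusted p was 0.132, without Brap F/F replicate 2. Its direction was opposite to that of most of the macrophage markers given above. Of those, 15 of 16 had a fitted value above 0, against 48.0% of all tested genes.

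Steap2, a metalloreductase gene and likewise singled out after its values were seen, measured 145, 113, 171 and 200 normalized counts in Brap LKO livers and 229, 387, 259 and 311 in Brap F/F livers. These groups did not overlap either, and the log2 difference was −0.91 (adjusted p = 0.0864, limma; adjusted p = 0.00264, DESeq2). Slc39a14, the ZIP14 importer of iron not bound to transferrin, was at −0.26 (adjusted p = 0.180, limma). The 2 most abundant members, Hpx and Hp, which code for the heme and hemoglobin carriers of plasma, were at −0.14 and −0.27 (adjusted p = 0.873 and 0.685, limma).

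Of 3 tested genes of ferroxidases and heme export, 0 passed, all 3 were above 0 and the median was 0.37. Flvcr1, a heme exporter gene, was at 0.37 (adjusted p = 0.211, limma), and Cp, the plasma ferroxidase ceruloplasmin, at 0.03 (adjusted p = 0.938, limma). Of 6 genes of iron regulatory proteins, iron chaperones and ferritin turnover, 0 passed and 5 were below 0, with a median of −0.16 that moved to −0.0046 with the same total per liver. Aco1, which codes for iron regulatory protein 1, and the iron chaperone gene Pcbp2 were at −0.17 and −0.16 (adjusted p = 0.407 and 0.515, limma). Ncoa4, the receptor that carries ferritin to lysosomes, was at −0.25 (adjusted p = 0.212, limma).

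All 10 tested genes of mitochondrial iron import and iron-sulfur cluster assembly had a fitted value below 0, but 0 passed. Their median of −0.14 turned to 0.02 with the same total per liver, where that of all tested genes was 0.15. Glrx5, a glutaredoxin of cluster assembly and among the most abundant of them, was at −0.26 (adjusted p = 0.310, limma). Of 13 genes of heme synthesis and breakdown, 0 passed and 11 were below 0, with a median of −0.10 that turned to 0.06 with the same total per liver. Alas1, the rate-limiting enzyme of heme synthesis in liver, and Cpox were at −0.23 and −0.28 (adjusted p = 0.782 and 0.493, limma), and Alad, with no overlap between groups, at −0.25 (adjusted p = 0.166, limma). Of 6 other transcripts known to carry an iron-responsive element, 0 passed, 4 were below 0, and the median of −0.12 turned to 0.04 with the same total per liver. Epas1, among the most abundant, was at −0.26 (adjusted p = 0.287, limma).

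**Figure D4:**
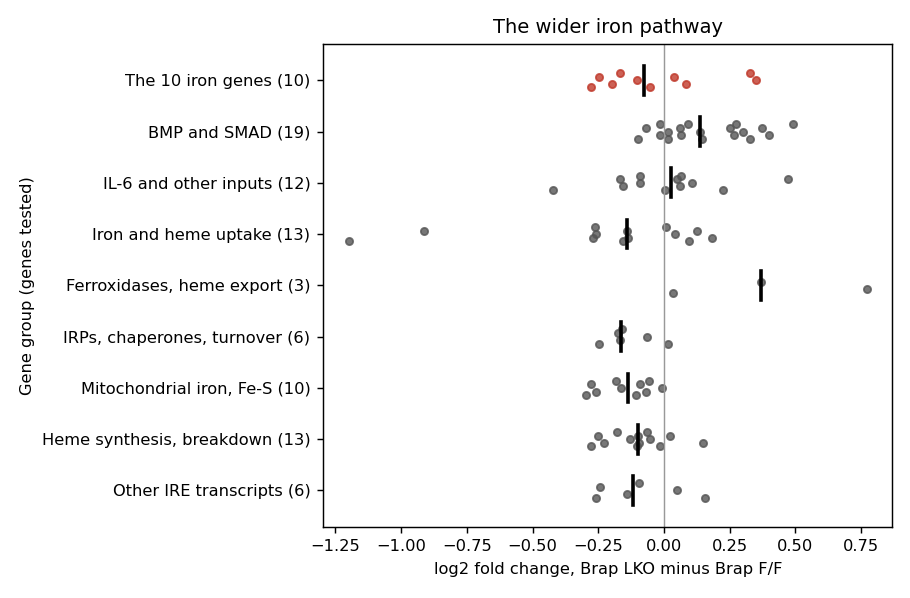
Fitted log2 fold change, Brap LKO minus Brap F/F, of every tested gene of the 10 iron genes (red) and of 8 pathway lists (gray), with the number of genes tested in parentheses and black bars at list medians. The 3 genes of the export list lie above 0 (median 0.37), and the 2 lowest points of all are Cd163 (−1.20) and Steap2 (−0.91), both in the uptake list.

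Red blood cells left in the tissue can add transcripts of heme genes. The summed level of the erythroid markers ran from 444 to 1154 normalized counts in Brap LKO and from 477 to 1234 in Brap F/F livers, none of the 5 tested passed, and Epb42 was at most 2.10 in every liver. Of the markers of other cells, 1 of 8 stellate markers passed, Pdgfrb at 0.91 (adjusted p = 0.0494, limma), and 1 of 6 cholangiocyte markers, Cftr at 2.91 (adjusted p = 0.0331, limma), while 0 of 8 lymphocyte markers did, against 0.769% of all tested genes. Fitted values were above 0 in 7 stellate, 6 cholangiocyte and 8 lymphocyte markers, against 48.0% of all tested genes, with medians of 0.44, 0.95 and 0.58. The groups did not overlap in 1, 3 and 1 of them, all higher in Brap LKO livers, against 9.87% of all tested genes in either direction. The summed cholangiocyte level ran from 1349 to 3015 in Brap LKO and from 718 to 1485 in Brap F/F livers, and that of stellate cells from 7075 to 11057 and from 4739 to 8247. The part of these cells in the values of the iron genes was not tested.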

How the data were processed

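Livers were assigned to groups by their labels, and animals are the replicates. Per the submitters' processing notes, the authors used FastQC, aligned reads to mm10 with STAR 2.6.0c and analyzed them with DESeq2; the counting tool, its annotation and its strand setting are not given in the sources used here. The deposited table holds normalized counts (a signal value per gene), that is, read counts divided by a size factor for each liver. A second deposited table holds only the authors' own comparison (fold changes and p-values) and was not used. Dividing each column by its smallest value above 0 gave whole reads for 100% of values (within 0.01 read).

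The main test was limma 3.58.1 (R 4.3.3) on log2(normalized count + 1), Brap LKO against Brap F/F, with eBayes variances that follow the mean, for the 15352 of 24451 genes with a mean of at least 5, with Benjamini-Hochberg adjustment over all of them and a threshold of 0.05. The pseudocount understates changes of low genes. Exact permutation tests ran over all 70 arrangements of the livers. Values ± are SD. edgeR 4.0.16 (quasi-likelihood) and DESeq2 1.42.0 on the recovered reads were alternatives, with other pseudocounts, filters, scalings, limma settings and covariates, and each liver left out in turn; scripts were tested on simulated data. Levels per kilobase used for each gene the GENCODE M21 transcript that is APPRIS principal, best supported and then longest.

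The iron genes were given by symbol, and the members and lists were chosen with earlier results of these data known. Genes named from the lists were those past the threshold and the 2 of each list with the highest mean, of which some are not reported here; Bmp4, Smad6, Smad7, Atoh8, Saa1, Cd163, Steap2, Slc39a14, Ncoa4 and Alad were added after their values were seen. The genes most like Hamp and Tfrc were the 5 with the highest Pearson's r. Promoters of Id1, Slc40a1 and Trf were not analysed here.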

Additional observations from a re-analysis of the deposited data

Results flagged for a closer look

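Among 44 groups of 4 livers examined for a liver far from the rest, 1 was picked out, where chance would give about 2.2: the count of Bmp4 in Brap F/F replicate 4 was 74.6 normalized counts, against 61.0 in the nearest of the other controls. It lay toward the Brap LKO livers and below all of them.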

How the results depend on the processing

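None of the 10 iron genes passed under any of 21 alternatives, whose lowest adjusted p was 0.0733 (Slc40a1, same total per liver, limma). Tfr2, Slc40a1, Fth1, Hfe, Bmp6 and Trf kept their sign in all 21, but some came near 0. With the same total per liver Tfr2 was at −0.011, Trf at −0.042 and Hfe at −0.088. With quantile normalization Fth1 was at −0.076. The lowest values of Slc40a1 and Bmp6 were 0.26 and 0.20. Hamp turned to 0.082 with quantile normalization, 0.11 with the same total per liver and up to 0.052 with a liver left out; Ftl1 turned to 0.056 with the same total; Tfrc turned to −0.029 with the animal-number series as a covariate. With a liver left out, ranges were −0.16 to 0.052 for Hamp, −0.24 to 0.27 for Tfrc, −0.13 to 0.30 for Id1, 0.20 to 0.52 for Bmp6, −0.29 to −0.082 for Trf, −0.48 to 0.080 for Tfr2 to Tfrc and −0.46 to 0.18 for Hamp to Id1. With the animal-number series as a covariate none of the 10 had an unadjusted p under 0.05, and the lowest adjusted p was 0.439 (limma).

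The same total per liver moved the median of all genes from −0.01 to 0.15; relative to that shift, Slc40a1, at 0.51, and Bmp6, at 0.49, stayed above it and the list medians moved with it: 0.30 for BMP and SMAD, 0.019 for uptake, 0.53 for export, −0.0046 for regulation, 0.021 for mitochondrial iron, 0.059 for heme and 0.041 for other transcripts with the element. With a liver left out the medians ran from −0.18 to 0.088 for IL-6 and STAT3, −0.21 to −0.0078 for uptake, −0.12 to −0.056 for heme, 0.10 to 0.22 for BMP and SMAD, −0.21 to −0.11 for regulation and −0.13 to −0.035 for the last list. The value farthest from the main one came without control replicate 3 for BMP and SMAD and for regulation, without knockout replicate 4 for heme, and without control replicate 4 for uptake and the last.

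The count over all genes moved more: 118 by the main test (102 higher, 16 lower), 122 by edgeR, 625 by DESeq2 (455 higher, 170 lower), 78 with quantile normalization, 479 with the same total per liver (459 higher, 20 lower), and 18 to 232 with a liver left out, the lowest when either knockout replicate 1 or control replicate 2 was absent and the highest when control replicate 4 was. The cause was not tested.

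Deviations of same-numbered livers correlated at −0.13, 0.0034, 0.20 and 0.29, not all above 0.1, so the numbers were not used as pairs, although for 3 of the 4 numbers the best match was the liver of the same number. With the replicate number as a block, 0 of the 10 iron genes and 95 of all genes passed. At 4 livers a group, the 95% interval for Tfrc still allowed log2 differences of −0.73 to 0.81.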
